A study of Mus musculus with 6 samples.

Results

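The genes described here are 10 genes of lipid droplets and fat breakdown, Plin2, Plin4, Plin5, Cidea, Cideb, Cidec, Pnpla2, G0s2, Cd36 and Lpl. They were taken by symbol, and all 10 were found among the 30236 rows of the table of mouse liver tumors and passed the filter on low values. The libraries came from liver tumors of male C57BL/6 littermates, 3 WT and 3 Top1mt-KO (Top1mt -/-), which lack the mitochondrial topoisomerase from birth and in all tissues, so that loss in the tumor cells was not separated from loss elsewhere. Both genotypes received diethylnitrosamine, a liver carcinogen, on day 14 of life, and from week 8 carbon tetrachloride, a liver toxin, in 2 injections per week for 14 weeks, and tumors of matched size were taken at week 22. The study calls the tumors independent without saying whether each came from its own animal, so p-values measure the spread between these tumors.

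Hepatocytes store fatty acids as triglyceride in lipid droplets, whose surface carries coat proteins. Perilipins (Plin2, Plin4, Plin5) shield the stored fat, CIDE proteins (Cidea, Cideb, Cidec) let droplets exchange lipid or, for Cideb, help load fat onto lipoprotein particles, and the lipase encoded by Pnpla2 (ATGL) starts the breakdown that the small protein G0s2 inhibits. Lpl frees fatty acids from circulating lipoproteins at the vessel wall, and Cd36 carries fatty acids across the cell membrane. Many of these genes are known targets of the nuclear receptors of the PPAR family, and fatty liver is known to carry more Plin2, Cidea, Cidec and Cd36 transcript than lean liver.

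Values are log2 expression as deposited, on a scale whose exact transform is not named, so a step of 1 stands for a doubling and the differences of low genes may be understated. They are listed in the order of replicates 1, 2 and 3. Differences are KO minus WT on that log2 scale, tested by limma over 22677 genes. The table holds no read totals, and sequencing depth is therefore unknown. The targeted gene Top1mt read 7.71, 5.99 and 8.01 across WT and 5.58, 6.41 and 6.32 across KO (difference -1.13, limma's adjusted p = 0.999). The library labelled WT replicate 2 thus lay among those labelled KO. Replicates are named by their labels, and every direction below rests on those labels. Without this library the Top1mt difference was -1.75 (unadjusted p = 0.00106 by limma, not past the threshold once adjusted). KO replicate 1 also stood apart, with 17.7% of its summed linear values in 1 gene, Gm42418, against 0.0199% to 0.387% in the other libraries.

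Hepatocyte identity was clear in all libraries. Alb ranged from 20.26 to 21.12, and of the 7 hepatocyte markers tested, 0 had an unadjusted p under 0.05. Of these 7 markers 5 were higher in KO, 1 of them, Ttr, without overlap (difference 0.58). The mean of their values, each centred on its own mean over libraries, ran from -0.27 to 0.21 in WT and from -0.15 to 0.25 in KO. Of the 7 fat cell markers, Adipoq, Lep, Plin1, Retn and Cfd lay between -1.36 and 2.25 in all libraries. The other markers of that list, which are not restricted to fat cells, were higher, Fabp4 between 7.80 and 9.28 and Lipe between 6.67 and 7.74. Of the 6 fat cell markers tested 0 had an unadjusted p under 0.05. Since each sample was a piece of tumor, fewer cells of a type and less RNA per cell cannot be told apart.

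Lpl was the single member whose genotypes separated. It was higher in all 3 KO tumors than in any WT tumor, by 1.02 on the log2 scale or 2.03-fold. Cidea had the largest difference, 1.72, but its groups overlapped. Plin2, Plin5 and G0s2 differed by -0.06, -0.04 and -0.07, and all coat, lipase and inhibitor genes overlapped between genotypes. The study itself reports genes that differ between tumors of these genotypes, by DESeq2 on read counts. By limma on the deposited log2 values, 0 of the 10 members had an adjusted p under 0.05, as did 0% of all genes tested. That share holds for this test and scale only. At an unadjusted p under 0.05 there was 1 member, Lpl, where the share over all genes tested was 4.34%, with 405 higher and 580 lower in KO. Groups did not overlap in 1 of 10 members, and in 8.28% of all genes tested. With KO above WT, the background share was 3.95%. Of the members, 4 were higher and 6 lower in KO, against 47.7% higher over all genes tested, and the members' median difference was -0.053 beside -0.015 for all genes. With each library centred on the median of the hepatocyte markers, the median difference over all genes was -0.40 in place of -0.015, and the split of the members was 2 higher and 8 lower. Read against these shares, a count of 1 among 10 is no result about the set.

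**Figure D1:**
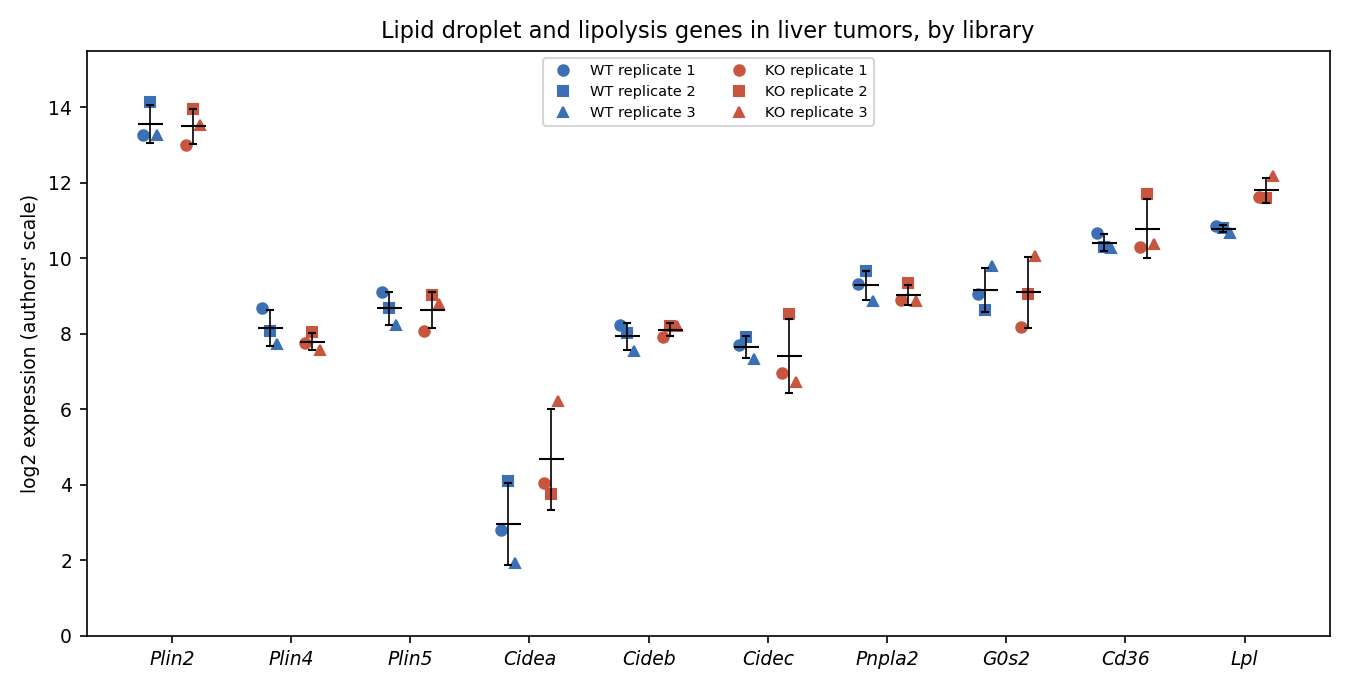
Log2 expression (vertical axis, authors' scale) of the 10 genes in each library. Blue marks are WT and red marks KO, with the symbol giving the replicate, and bars show mean ± SD of 3 libraries. The 3 KO values of Lpl, from 11.59 to 12.19, all sit above the WT values of 10.68 to 10.85, and the other 9 genes overlap.

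Promoter windows were matched for 8 of the 10 members in RefSeq (GRCm38.p6), from 250 bases before to 50 after the most upstream start in that table, and none was used here for Lpl and Cidea. The windows were searched on both strands for AGGTCA, the core motif read by PPARs and other nuclear receptors, and for CACGTG, an E-box read by factors such as USF and MLXIPL. AGGTCA was held by 3 of 8 windows and by 16.3% of all 32851, and CACGTG by 1 of 8 and by 7.15% of all. The 3 windows shown were chosen because they hold the core motif, with AGGTCA (or its reverse complement) and CACGTG in capitals. They lie at chr4:86670010-86670309 for Plin2, chr17:56117499-56117798 for Plin5 and chr5:17835847-17836146 for Cd36, all on the minus strand, and are written 5′ to 3′ along the gene.
Plin2: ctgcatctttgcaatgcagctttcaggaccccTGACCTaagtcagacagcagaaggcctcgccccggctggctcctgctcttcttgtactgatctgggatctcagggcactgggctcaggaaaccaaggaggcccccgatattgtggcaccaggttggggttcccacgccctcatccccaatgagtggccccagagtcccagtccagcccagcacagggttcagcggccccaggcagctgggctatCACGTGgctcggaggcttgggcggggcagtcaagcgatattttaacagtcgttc
Plin5: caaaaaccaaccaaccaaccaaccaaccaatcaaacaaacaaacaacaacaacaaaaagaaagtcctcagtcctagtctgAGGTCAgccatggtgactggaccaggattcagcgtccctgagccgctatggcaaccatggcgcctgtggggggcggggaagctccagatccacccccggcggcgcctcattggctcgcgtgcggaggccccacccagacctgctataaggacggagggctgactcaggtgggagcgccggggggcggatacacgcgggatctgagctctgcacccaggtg
Cd36: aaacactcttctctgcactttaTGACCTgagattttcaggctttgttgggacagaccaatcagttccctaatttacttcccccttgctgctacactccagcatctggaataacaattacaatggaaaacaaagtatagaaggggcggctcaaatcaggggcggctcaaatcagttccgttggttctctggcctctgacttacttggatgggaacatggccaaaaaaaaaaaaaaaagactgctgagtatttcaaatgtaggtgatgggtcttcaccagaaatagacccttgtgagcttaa
The core motif begins at position -218 from the start in Plin2, at -170 in Plin5 and at -228 in Cd36, and the E-box of Plin2 begins at -4. The window of Cd36 lies inside the gene's full span, chr5:17781690-17888801, because other annotated transcripts start further upstream. A match describes these letters and is no evidence of binding.

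Plin2, the main droplet coat protein of hepatocytes, was the most abundant member. It read 13.27, 14.14 and 13.26 across WT and 13.00, 13.95 and 13.53 across KO, and its mean level was at percentile 99.6 of all genes. The groups overlapped throughout, the highest value being WT replicate 2 and the lowest KO replicate 1. The difference was -0.06, with a 95% interval of -0.83 to 0.71 and an adjusted p of 0.999 by limma. It was 0.23 without WT replicate 2, 0.18 without KO replicate 1 and 0.48 without both, so no direction can be given.

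Plin5, the perilipin that tethers droplets to mitochondria in oxidative tissue, read 9.11, 8.68 and 8.23 across WT and 8.08, 9.02 and 8.79 across KO. Its difference of -0.04 was far inside the SDs of 0.44 and 0.49, and the 95% interval ran from -0.73 to 0.64. Plin4, a perilipin best known from fat and muscle, read 8.68, 8.07 and 7.74 across WT and 7.76, 8.05 and 7.58 across KO. WT replicate 1 stood highest and KO replicate 3 lowest, and the groups overlapped (difference -0.37, standard error 0.26, limma's adjusted p = 0.999). The difference was -0.11 without WT replicate 1 and -0.58 without WT replicate 3. Plin4 and Plin5 are neighbours on chromosome 17, 1797 bases apart with 0 annotated genes between them. A link between their values was not established (Pearson's r = 0.64, exact permutation p = 0.182, Spearman's rho = 0.49, exact permutation p = 0.356, over 6 libraries). Their r ran from 0.41 to 0.84 with 1 library left out, and was 0.91 without the 2 libraries farthest from the median of Plin4.

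Cidea, a droplet fusion protein of brown fat that appears in steatotic liver, varied most of all members, with a range of 4.27. It read 2.81, 4.11 and 1.94 across WT and 4.05, 3.75 and 6.21 across KO. KO replicate 3 was the highest by a wide margin, WT replicate 3 the lowest, and WT replicate 2 lay above 2 of the 3 KO libraries. The difference was 1.72 with a standard error of 0.81, a 95% interval of -0.15 to 3.58 and an adjusted p of 0.999 by limma, and the exact two-sided permutation p was 0.3. It was 0.95 without KO replicate 3. The unadjusted p by limma was 0.0666 with all libraries. By limma it was 0.1365 without WT replicate 1, 0.198 without WT replicate 3, 0.07 without KO replicate 1 and 0.244 without KO replicate 3. It fell to 0.0293 without WT replicate 2 (difference 2.30) and to 0.0413 without KO replicate 2 (2.18). Without both WT replicate 2 and KO replicate 1 it was 0.0376 (2.61), and no adjusted p passed. The genes whose profile over the 6 libraries was most like that of Cidea were Kif1c (Pearson's r = 0.998), Atf5 (0.993) and AI182371 (0.985), chosen as the closest of all genes tested. Kif1c spanned 11.60 to 11.88, a far smaller range, whereas Atf5 went from 10.05 in WT replicate 3 to 12.20 in KO replicate 3.

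Cidec (Fsp27), which enlarges droplets, read 7.71, 7.90 and 7.32 across WT and 6.96, 8.53 and 6.72 across KO. KO replicate 2 lay above every WT library and the other KO libraries below, so that the KO SD of 0.99 exceeded the WT SD of 0.29. The difference was -0.24 with all libraries. Without KO replicate 2 it was -0.81 (unadjusted p = 0.0144 by limma, not past the threshold once adjusted), without KO replicate 3 it was 0.10, and without WT replicate 2 it was -0.11.

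Cideb, the CIDE protein of hepatocytes, read 8.23, 8.02 and 7.54 across WT and 7.90, 8.22 and 8.20 across KO. It had the smallest range of all members, 0.69, and a difference of 0.18 (95% interval -0.31 to 0.67). Cideb lies at chr14:55754050-55758458 on the minus strand of GRCm38, and 1136 bases of its exons overlap exons of Nop9 on the other strand. The libraries were stranded, but the strand setting of the counting is not stated, so reads of the pair may not be separated. Nop9 lay between 7.91 and 8.22 in all libraries.

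Pnpla2, the first lipase of droplet breakdown, read 9.32, 9.66 and 8.88 across WT and 8.89, 9.35 and 8.88 across KO. WT replicate 2 was the highest, the lowest WT and KO values nearly coincided, and the difference was -0.25 (95% interval -0.78 to 0.28). It was -0.062 without WT replicate 2 and -0.45 without WT replicate 3. G0s2, its inhibitor, read 9.06, 8.63 and 9.80 across WT and 8.18, 9.05 and 10.05 across KO. Replicate 3 of each genotype was the highest of its group, and KO replicate 1 the lowest of all. The difference of -0.07 was small beside the SDs of 0.59 and 0.94 (95% interval -1.16 to 1.02), and it was -0.33 without WT replicate 2. The lipase and its inhibitor had a Pearson's r of -0.40 (exact permutation p = 0.426) and a Spearman's rho of -0.66 (exact permutation p = 0.175) over the 6 libraries, and r was -0.19 without the 2 libraries farthest from the median of Pnpla2.

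Cd36, the fatty acid translocase, read 10.68, 10.30 and 10.27 across WT and 10.29, 11.70 and 10.38 across KO. KO replicate 2 alone was high, and the other 5 libraries lay within 10.27 to 10.68. The difference was 0.37 (95% interval -0.45 to 1.19), and -0.082 without KO replicate 2. Pparg was also highest in that library, at 8.60 against 7.01 to 7.75 in the others, as was Fabp4, at 9.28 against 7.80 to 8.73. Both were picked after their values were seen.

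**Figure D2:**
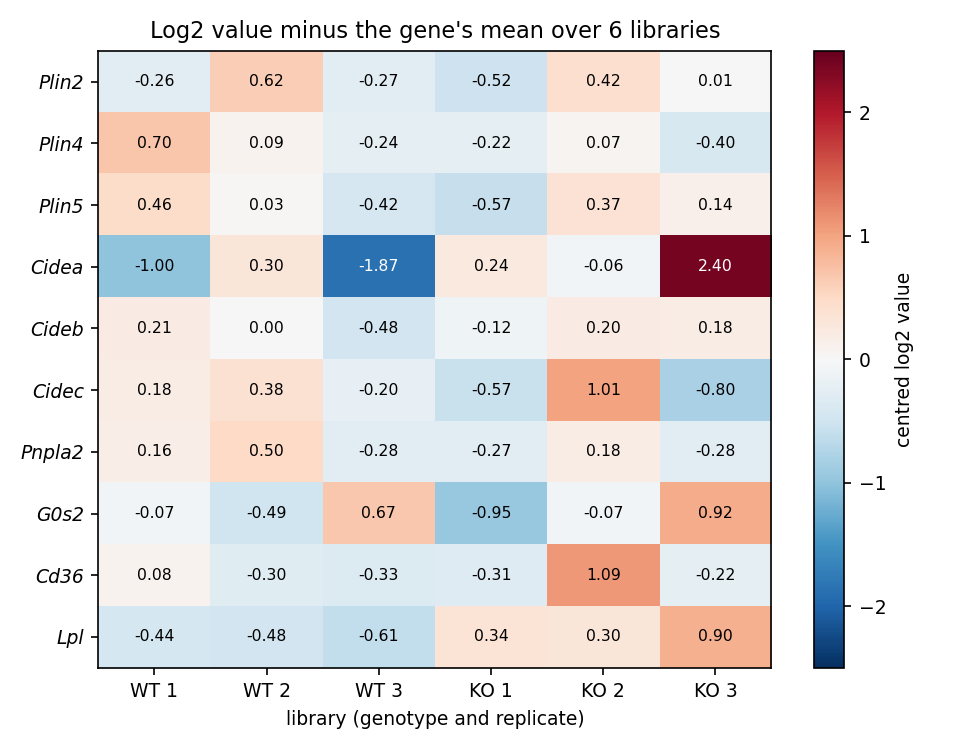
Each cell gives a gene's log2 value in 1 library minus its mean over the 6 libraries, with red above and blue below that mean. The Lpl row alone has 1 sign per genotype, while KO replicate 2 is high for Cidec (1.01) and Cd36 (1.09) and KO replicate 3 for Cidea (2.40).

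Lpl, the lipoprotein lipase, lies at chr8:68880491-68907448 on the plus strand of GRCm38. It is made mainly by fat and muscle and is known as low in adult hepatocytes. It read 10.85, 10.81 and 10.68 across WT and 11.63, 11.59 and 12.19 across KO. The lowest KO library lay 0.74 above the highest WT library, and the WT SD was 0.089 against 0.33 in KO. The difference was 1.02 with a standard error of 0.19 and a 95% interval of 0.59 to 1.45. Its unadjusted p by limma was 0.000597, rank 9 of the 22677 genes, and its adjusted p was 0.938, so it did not pass over all genes. The exact two-sided permutation p was 0.1, the smallest that 3 against 3 allow. A difference at least as large in size was seen in 4.17% of all genes tested.

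The difference of Lpl ranged from 0.83 without KO replicate 3 to 1.13 without KO replicate 2, and it was 1.04 without WT replicate 2 and 1.12 without both WT replicate 2 and KO replicate 1. Centred on hepatocyte markers it was 0.64 (unadjusted p = 0.132 by limma). This centring moves the difference of every gene by the same amount. The distance of Lpl from the median of all genes is thus 1.04 with or without it, which is no further check. Markers of other cell types were listed beside Lpl. Of 9 macrophage markers 0 were at an unadjusted p under 0.05, and the mean of their centred values ran from -0.45 to 0.30 in WT and from -0.38 to 0.22 in KO. Of 7 endothelial markers 1 was, Cdh5, which like Pecam1 was higher in KO without overlap, and their mean ran from -0.18 to 0.081 in WT and from -0.014 to 0.20 in KO. Of 6 stellate cell markers 1 was, with a mean from -0.28 to 0.69 in WT and from -0.68 to 0.26 in KO, and of 5 bile duct markers 2 were, Krt7 and Krt19, all 3 of these lower in KO. Krt19, a keratin of bile duct cells, differed by -2.68 without overlap, from 4.75 to 6.93 across WT and no higher than 4.38 across KO. The bile duct mean ran from 0.022 to 1.06 in WT and from -0.92 to -0.16 in KO, without overlap. Of its 5 markers 3 were lower in KO, while Sox9 (difference 0.15) and Spp1 (0.045) were higher, with overlap. The part of these cell types in the Lpl values was not tested.

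**Figure D3:**
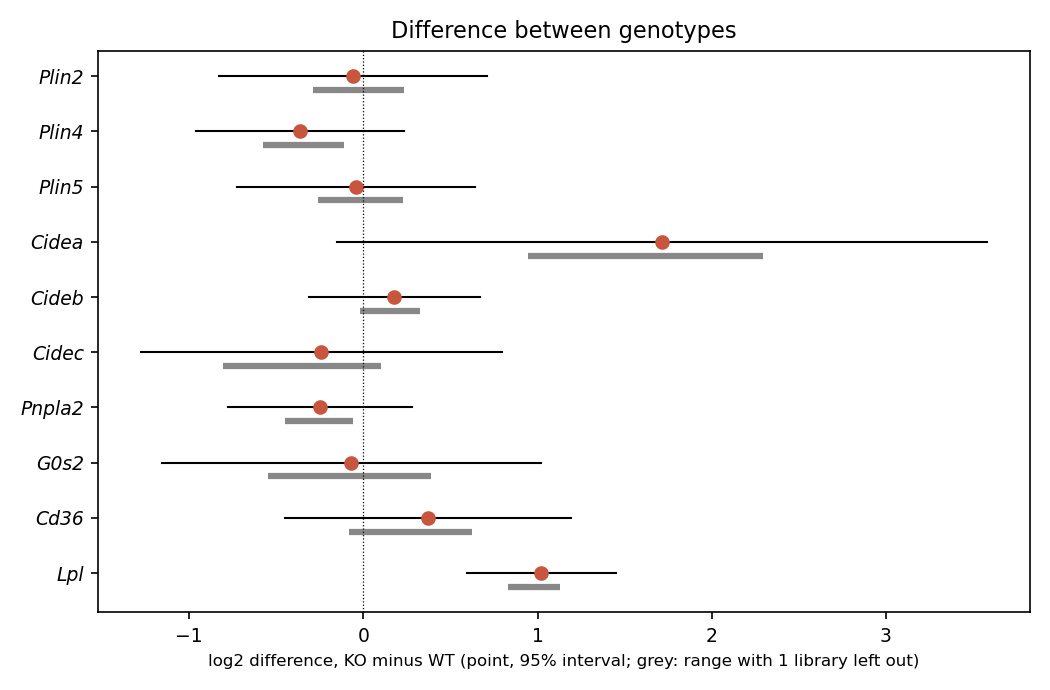
The log2 difference between genotypes (horizontal axis, KO minus WT) for each gene, as a red point with limma's 95% interval in black. The grey bar is the range over 6 fits that each left out 1 library. Lpl alone has an interval above 0, from 0.59 to 1.45, and its grey bar runs from 0.83 to 1.13.

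Partners of Lpl were set beside it. Lmf1, needed for the folding of the lipase, averaged 9.21 ± 0.059 (SD, n = 3) across WT and 9.35 ± 0.062 across KO, without overlap but with a difference of 0.14. Gpihbp1, which anchors the lipase on capillaries, differed by 0.15 with overlap. The inhibitors Angptl4 and Angptl8 overlapped, with differences of -0.14 and 0.050 and SDs from 0.64 to 1.12.

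**Figure D4:**
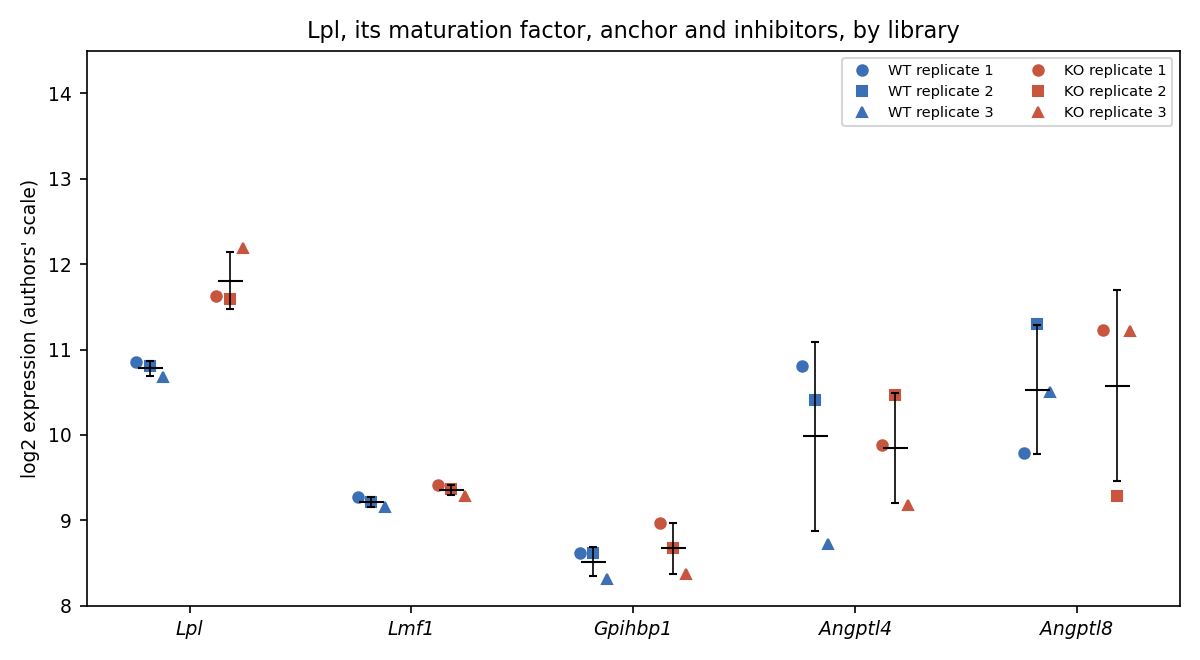
Log2 expression (vertical axis) of Lpl, its maturation factor Lmf1, its anchor Gpihbp1 and its inhibitors Angptl4 and Angptl8 in each library, with mean ± SD. The genotypes separate for Lpl and, by a narrow margin, Lmf1, where the means differ by 0.14.

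Levels were also taken per kilobase of exon, counted as the union of all annotated exons (10.5 kb for Lpl). That length can exceed the transcript present, and the scale's transform is not named, so the order and places are rough. On this measure Plin2 led in WT at a log2 value per kilobase of 11.7. It was followed by G0s2 (9.36), Cd36 (8.57), Pnpla2 (7.69), Plin5 (7.61), Lpl (7.39), Cideb (7.36), Cidec (6.75), Plin4 (5.63) and Cidea (2.80). The WT ranges of neighbours in this order overlapped between G0s2 and Cd36 and along the run from Pnpla2 to Cidec, so those steps are within the spread. In KO the level of Lpl per kilobase was 8.41, which placed it 4th in place of 6th, while the first 3 and the last 3 genes kept their places.

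Among the members themselves, 32 of the 45 pairs had a positive Pearson's r over the 6 libraries, with a median of 0.28, and 0 pairs passed an adjusted p of 0.05 (exact permutation tests, adjusted over 45 pairs, smallest 0.688 for Pearson and 0.375 for Spearman). The share of positive pairs among other genes was not taken, so 32 of 45 is not read as a trait of the members. At an unadjusted exact permutation p under 0.05 there were 2 pairs by Pearson and 4 by Spearman. The pair past both was Plin5 and Cideb, with r = 0.83 (exact permutation p = 0.0208) and rho = 0.94 (exact permutation p = 0.0167). Its r was 0.81 without the 2 libraries farthest from the median of Plin5, and 0.91 for deviations from the genotype means. Cidea and Lpl had r = 0.84 (exact permutation p = 0.0319) and rho = 0.66 (exact permutation p = 0.175). Their r was 0.40 without WT replicate 3 and KO replicate 3, the 2 libraries farthest from the median of Cidea. It was 0.85 for deviations from the genotype means, and from 0.62 to 0.96 with 1 library left out. By library, KO replicate 2 was above the gene's own mean for 8 members and WT replicate 3 for 1.

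A wider list of 58 genes of droplet coats, droplet formation, lipases, fatty acid uptake and their regulators was fitted with the rest, and all 58 were tested. By limma 0 had an adjusted p under 0.05, and 4 had an unadjusted p under 0.05, 3 higher and 1 lower in KO, beside 4.34% of all genes tested. Groups did not overlap for 3 higher and 4 lower genes, beside 8.28% of all genes. In all, 24 were higher and 34 lower, where 47.7% of all genes were higher. The median difference was -0.073, but it ran from -0.11 without KO replicate 2 to -0.0019 without KO replicate 3 when 1 library was left out, and it was -0.46 with hepatocyte centring, where the median of all genes was -0.40. Agpat2, an acyltransferase of triglyceride synthesis, read 10.82, 10.79 and 10.83 across WT and 11.43, 11.28 and 11.29 across KO (difference 0.52, standard error 0.12, limma's adjusted p = 0.968). Ppard, a PPAR receptor, had a difference of 0.89 with overlap, and Tfeb, a regulator of lysosomes, one of -0.47 without overlap.

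The other genes at the ends of the list overlapped between genotypes. Mogat1, a monoacylglycerol acyltransferase, had a difference of 0.70 at values from 0.46 to 2.53, near the bottom of the scale. Vldlr, a lipoprotein receptor, had -1.15, Fitm1 -0.80 and the endothelial lipase Lipg -0.66. Ppara, the main PPAR receptor of liver, read 12.06, 12.24 and 11.90 across WT and 11.83, 11.84 and 11.31 across KO, a difference of -0.41 without overlap. Gpat4 (-0.28) and Nr1h3 (-0.13) were the other genes whose KO values all lay below WT. By role, 2 of 9 coat and droplet proteins, 5 of 12 formation genes, 5 of 10 lipases and cofactors, 9 of 15 uptake genes and 3 of 12 regulators were higher in KO.

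**Figure D5:**
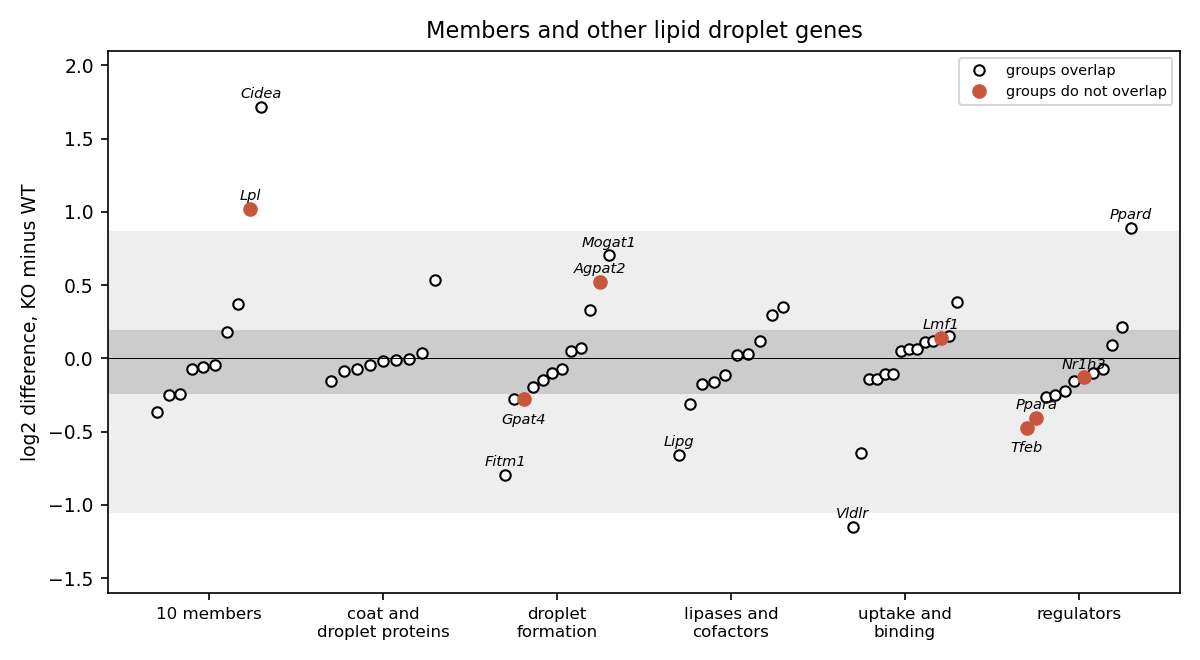
The log2 difference between genotypes (vertical axis) of the 10 members and of the other genes reported, by role, 1 point per gene. Red points are genes whose groups do not overlap, and the grey bands run from -0.23 to 0.19 and from -1.05 to 0.86, the quartiles and the 2.5 and 97.5 percentiles of all genes tested. Cidea, Lpl and, by a narrow margin, Ppard lie above the outer band, and Vldlr lies below it.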

How the data were processed

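RNA from 3 WT and 3 Top1mt-KO tumors was measured, with groups taken from the sample titles. The authors deposited log2 values per gene symbol; their transform is not named, and the values run from -2.24 to 22.0. The study's methods name Trimmomatic, BWA, a genome called Mm 8, unique reads, featureCounts and DESeq2. The submitters' processing notes name STAR 2.5.1 and GRCm38, so the aligner and build are uncertain. Genes were matched by symbol. The table has 3 unnamed columns, not used here, and 0 other columns of samples.

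Genotypes were compared by limma 3.58.1 in R 4.3.3 (lmFit, eBayes with trend, Benjamini-Hochberg) on the 22677 genes whose mean exceeded the lowest 25%, at an adjusted p of 0.05. The fit was checked on simulated data. Single genes were also compared by exact two-sided permutation over 20 regroupings. Exon lengths came from GENCODE M21 and promoters from RefSeq. The members and lists were chosen with earlier results of these data known. Named by rule were the members, Top1mt, the ends of the wider list, its genes at an unadjusted p under 0.05 and the 3 genes most like the member of largest range. The partners of Lpl, Ppara, Gpat4, Nr1h3, Pparg, Fabp4, Nop9, Cdh5, Pecam1, Krt7, Krt19, Ttr, Sox9 and Spp1 were picked after their values were seen. Of 8 hepatocyte markers, Tf was not analysed here. The counts over the wider list include 1 gene that is not reported here. Alternatives were limma without trend, library weights, quantile normalization, hepatocyte centring, other filters, a replicate block and each library left out.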

Additional observations from a re-analysis of the deposited data

How the results depend on the processing

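No member and no gene of the wider list had an adjusted p under 0.05 by limma in any fit. Over all genes tested the count was 0, but 4 with no filter on low values, 70 with hepatocyte centring (66 of them lower in KO, with a median difference of -0.40 over all genes) and from 0 to 1 with 1 library left out, the 1 gene being called without KO replicate 1. With the filter at the median 590 of 15118 genes had an unadjusted p under 0.05 by limma, against 985 of 22677 in the main fit. Lpl, Cidea and Plin4 kept their direction in every fit (Plin4 from -0.58 to -0.11 with 1 library left out), and Pnpla2 (from -0.45 without WT replicate 3) in all but the fit without both WT replicate 2 and KO replicate 1 (0.012), which was added after the data were seen. That fit also gave 0.48 for Plin2, 0.23 for Plin5, 0.11 for Cidec and 0.12 for G0s2.

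Library weights gave 0.090 for Plin2, 0.096 for Plin5 and 0.020 for G0s2, and hepatocyte centring gave -0.21 for Cideb and -0.012 for Cd36. With 1 library left out, differences ran from -0.29 to 0.23 for Plin2, -0.26 to 0.23 for Plin5, -0.018 to 0.33 for Cideb, -0.81 to 0.10 for Cidec, -0.55 to 0.39 for G0s2 and -0.082 to 0.62 for Cd36. The causes were not tested. The replicate block gave 0 members and 0 genes past the threshold and an adjusted p of 0.9995 for Lpl by limma, whose range over all fits was 0.398 to 0.9995. Deviations of same-numbered libraries correlated at -0.123, -0.076 and 0.052, under the level taken as pairing. Of the pairs of members, 30 to 35 had a positive r when 1 library was left out. With unknown depth, no counting error can be given.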
